A study of Mus musculus with 27 samples.

Results

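The genes described here are 10 output factors of the circadian clock: *Dbp*, *Tef*, *Hlf*, *Nfil3*, *Ciart*, *Bhlhe40*, *Bhlhe41*, *Usp2*, *Klf9* and *Klf13*. They were selected by gene symbol from the 17655 genes listed for the livers of 27 mice. The set was chosen on these same libraries: *Dbp* and *Ciart* are the genes that passed the test between HepKO and KO livers of WDA females, *Dbp* also lies among the genes that differed between Res and WDA livers of WT males, and the other 8 were added as relatives of theirs with earlier results of these libraries known. The values of *Dbp* and *Ciart* are therefore given as a description throughout, with no p, and so are those of all 10 genes in both of those comparisons. Any other comparison that includes HepKO females, WDA KO females or WT males of either stage reuses libraries of those comparisons. The tests of the 8 other genes there are not independent of the choice.

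The molecular clock is a loop in which ARNTL (BMAL1) pairs with CLOCK or NPAS2 and switches on the *Per* and *Cry* genes, whose proteins then hold the pair back. A second loop runs through the nuclear receptors REV-ERB (*Nr1d1*, *Nr1d2*), which repress *Arntl* and *Npas2*, and ROR, which activates them. The output factors carry this rhythm to liver genes: DBP, TEF and HLF are PAR bZIP transcription factors that activate genes through D-box sequences, NFIL3 is a bZIP protein that represses through the same sequences, and CIART, BHLHE40 and BHLHE41 are repressors of CLOCK and ARNTL activity. In liver, the *Dbp* transcript rises and falls over the day more strongly than most, *Usp2* encodes a rhythmic deubiquitinase, and KLF9 and KLF13 are Krüppel-like zinc finger factors, the first of them responsive to glucocorticoids.

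RNA from whole liver had been sequenced from mice with both *Kdm5b* alleles floxed (*Kdm5b* fl/fl), 1 library a mouse, in 9 groups of 3. *Kdm5b* encodes a demethylase of lysine 4 of histone H3. WT mice received AAV8-control, KO mice AAV8-CMV-Cre, whose promoter is active in many cell types, and HepKO mice AAV8-TBG-Cre, whose promoter is active in hepatocytes, so WT mice also carried the floxed alleles and a virus. WDA mice, from experiment 11, ate a western diet and drank water with alcohol, for 8 weeks according to the labels, and received the virus at the start of alcohol. Res mice, from experiment 12, had 16 weeks of this feeding according to the labels (the study's text gives a longer period), a liver biopsy, and then the virus, followed by 4 weeks of resolution on chow and plain water. WT and KO groups of both sexes exist at both stages, and HepKO mice are WDA females only. The study's methods give 7 to 8 weeks as the age at the start. Stage therefore cannot be told apart from experiment, biopsy, length of feeding, age, the time of the virus and the switch to chow. The hour at which livers were taken is not given in the sources used here.

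Summed counts per library ran from 14634602 to 19388251. *Kdm5b*, the targeted gene, was at 21.5 to 31.2 CPM in WT, 14.5 to 24.1 CPM in KO and 8.30 to 17.4 CPM in HepKO livers of WDA females, at 23.5 to 24.9 CPM in WT and 20.6 to 22.0 CPM in KO livers of WDA males, at 16.6 to 17.4 and 10.7 to 13.2 CPM in Res females, and at 18.8 to 19.7 and 7.93 to 17.2 CPM in Res males. It averaged 69.9% of WT in KO livers of WDA females, where the groups overlapped, and 88.5%, 70.3% and 65.7% in KO livers of WDA males, Res females and Res males, where the groups did not overlap. In HepKO livers it averaged 51.2% of WT. Levels are given as CPM (counts scaled to library size, with TMM factors between libraries). Hepatocyte markers summed to at least 77178 CPM in every library. In 5 libraries the summed cholangiocyte markers (5 of 5 genes detected) reached 154.4 to 526.8 CPM, against 16.3 to 105.0 CPM in the other 22: WDA WT female 7, WDA KO male 17, Res WT female 13, Res WT male 9 and Res KO male 5. Monocyte and macrophage markers were also highest in mice 7 and 17 of the WDA groups, at 788 and 539 CPM. In whole liver, fewer cells of a type and less RNA per cell cannot be told apart. Several results are given with and without these 5 libraries, and their part in a result was otherwise not tested.

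The promoter sequences of 3 of the genes are shown because they hold CACGTG, the E-box bound by CLOCK and ARNTL, outside annotated exons. RefSeq windows from 250 bases before to 50 bases after the start of transcription (GRCm38.p6) were at hand for 9 of the 10 genes, with a second start for *Tef*. Capitals mark the motifs that were found, and each sequence runs from 250 bases before the start up to the first exonic base or the start.
Ciart, chr3:95882252-95882478, minus strand: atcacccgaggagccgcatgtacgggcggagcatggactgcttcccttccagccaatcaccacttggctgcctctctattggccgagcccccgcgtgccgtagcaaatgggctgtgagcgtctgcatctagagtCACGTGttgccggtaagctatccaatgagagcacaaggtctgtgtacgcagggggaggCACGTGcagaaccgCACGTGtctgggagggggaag
Bhlhe41, chr6:145865559-145865670, minus strand: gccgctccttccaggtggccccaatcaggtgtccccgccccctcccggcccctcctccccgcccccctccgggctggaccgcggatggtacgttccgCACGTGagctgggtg
Tef, second start, chr15:81811164-81811413, plus strand: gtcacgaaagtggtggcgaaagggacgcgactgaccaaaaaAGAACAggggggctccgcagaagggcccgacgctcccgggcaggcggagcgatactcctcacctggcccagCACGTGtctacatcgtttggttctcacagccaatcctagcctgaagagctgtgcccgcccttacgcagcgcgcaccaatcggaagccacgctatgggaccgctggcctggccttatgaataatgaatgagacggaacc

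*Ciart* held 3 E-boxes, beginning 116, 58 and 44 bases before the start, and *Bhlhe41* held 1, at 153 bases. *Tef* held 1 at each of its starts, and AGAACA, a half-site of the glucocorticoid response element, 209 bases before the second. Of 32851 RefSeq promoter windows of this length, 7.15% held CACGTG on either strand and 19% held AGAACA. The other motifs searched on both strands were the E-box variant CACGTT (4.68% of windows), the D-box TTATGTAA or TTACGTAA (1.06%) and the RORE core TAGGTCA (2.61%), which REV-ERB and ROR bind. *Nfil3* held the RORE core 12 bases before its start, within an annotated exon, and the windows of *Dbp*, *Hlf*, *Usp2*, *Klf9* and *Klf13* held none of these letters. A match is a description of the letters and not of a bound site.

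Levels between genes were compared per transcript length, as FPKM. *Klf9* had the highest median over the 27 livers, 30.8 FPKM, followed by *Tef* (21.6), *Bhlhe40* (17.7), *Nfil3* (16.3), *Hlf* (8.87) and *Klf13* (6.81). *Dbp* (3.53), *Ciart* (2.60) and *Usp2* (2.31) were lower, and *Bhlhe41* was lowest at 0.25 FPKM. *Ciart* varied 75.7-fold in CPM between its highest and lowest library, or 24.98-fold without WDA WT female 5, whose value rests on 3 counts, and *Dbp* varied 40.8-fold, while *Tef* varied 4.11-fold, *Klf13* 3.41-fold and *Hlf*, the steadiest, 2.93-fold. Raw counts were low for *Ciart* (3 to 240 a library) and *Bhlhe41* (7 to 105), and 29 to 1123 for *Dbp*.

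**Figure D1:**
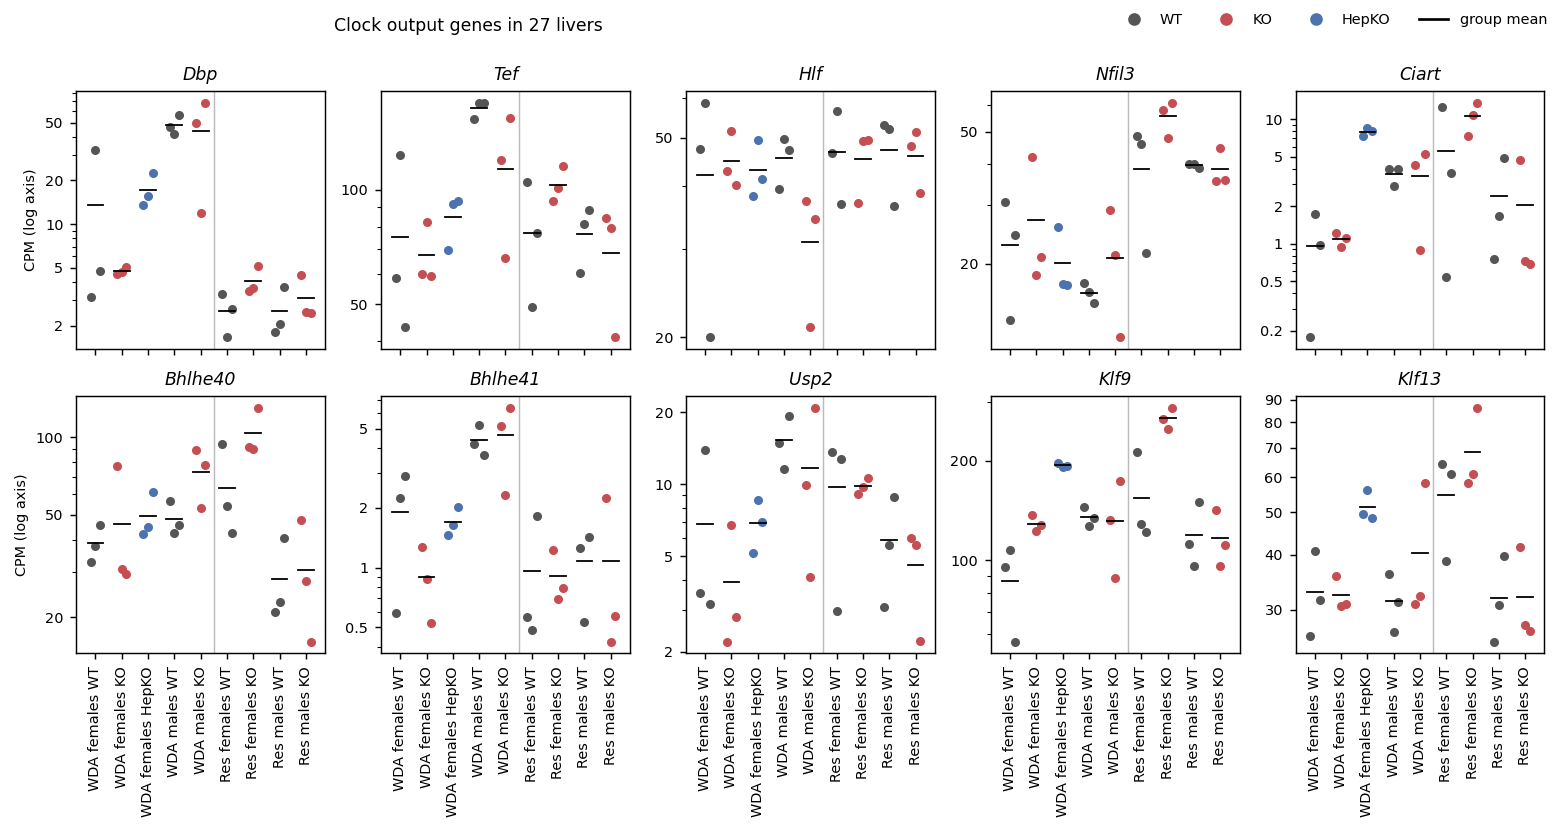
CPM of each of the 10 genes in all 27 livers (vertical log axis, a separate scale for each gene), by group along the horizontal axis. Each point is 1 mouse, coloured by vector, each bar is a group mean, and the grey line parts WDA from Res mice. *Dbp* is high in 5 of the 6 WDA males and below 6 CPM in every Res mouse, *Ciart* is at 7.30 to 8.47 CPM in HepKO livers, and *Hlf* varies least between groups.

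*Dbp* encodes the PAR bZIP activator whose transcript is the best known output of the liver clock. In WDA WT males it was at 46.3, 41.9 and 56.7 CPM, and in WDA KO males at 50.03, 12.0 and 68.3 CPM. The low KO value is mouse 17, one of the 5 libraries rich in cholangiocyte markers. In WDA WT females *Dbp* was at 3.15, 32.5 and 4.80 CPM, so that mouse 6 alone reached the order of the males. In WDA KO females it was at 4.52, 4.72 and 5.07 CPM, and in HepKO females at 13.6, 15.8 and 22.6 CPM, above every KO female. The 12 Res livers lay between 1.67 and 5.17 CPM whatever their sex or vector. From the highest to the lowest mean, the order of the groups was WDA WT males (48.3 ± 7.57 CPM, SD, n = 3), WDA KO males (43.4 ± 28.7), HepKO females (17.3 ± 4.69), WDA WT females (13.5 ± 16.5), WDA KO females (4.77 ± 0.281), Res KO females (4.10), Res KO males (3.13), Res WT females (2.54) and Res WT males (2.54). Each neighbour in this order overlapped the next.

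The exons of *Dbp* (gene 13170, chromosome 7, 45705100 to 45710203, plus strand) share 539 of 2993 bases with those of *Sphk2* on the opposite strand, and whether counting used strand is not given in the sources used here. *Sphk2* stayed between 40.4 and 119.7 CPM in all libraries and averaged 74.6 CPM in WDA WT males and 75.1 CPM in Res WT males, the groups between which *Dbp* differed 19.04-fold.

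The closest relative of *Dbp* in its levels was *Tef* (gene 21685, chromosome 15, 81802673 to 81826863), which encodes another PAR bZIP activator. It was highest in WDA WT males, at 153, 168 and 169 CPM, and reached 119.8, 66.0 and 154 CPM in WDA KO males, with mouse 17 again the low one. In WDA WT females it was at 58.8, 123 and 43.7 CPM, mouse 6 again being the high one, and in the other 6 groups it lay between 41.1 and 115 CPM. *Usp2* (gene 53376, chromosome 9, 44067021 to 44095627) followed the same mice: 14.96, 11.6 and 19.4 CPM in WDA WT males, 9.92, 4.11 and 20.97 CPM in WDA KO males, and 3.51, 13.9 and 3.15 CPM in WDA WT females.

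*Hlf* (gene 217082, chromosome 11, 90336535 to 90390917), the third PAR bZIP gene, did not follow them. Its group means ran from 30.9 CPM in WDA KO males to 47.1 CPM in Res WT males, and all neighbouring groups overlapped. Its lowest values, 19.99 and 20.97 CPM, belonged to WDA WT female 7 and WDA KO male 17, which had the highest cholangiocyte and macrophage marker sums and, with WDA KO male 16, the lowest hepatocyte marker sums. *Nfil3* (gene 18030, chromosome 13, 52967209 to 52982878), the repressor at D-boxes, ran the other way from *Dbp*: 15.2 to 17.5 CPM in WDA WT males, 38.8 to 40.0 CPM in Res WT males and 48.0 to 61.0 CPM in Res KO females, where it was highest.

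*Ciart* (gene 229599, chromosome 3, 95878500 to 95882257), a repressor of CLOCK and ARNTL, was not ordered like *Dbp*: its highest group means were those of Res KO females and HepKO females, as for *Klf9*. It was at 0.178, 1.73 and 0.977 CPM in WDA WT females, 1.22, 0.933 and 1.11 CPM in WDA KO females and 7.30, 8.47 and 7.99 CPM in HepKO females, which did not overlap with either of the others. WDA WT males had 4.01, 2.90 and 3.95 CPM and WDA KO males 4.29, 0.890 and 5.29 CPM. Among Res livers it was at 12.4, 0.540 and 3.68 CPM in WT females, 7.28, 10.7 and 13.5 CPM in KO females, 0.755, 1.66 and 4.87 CPM in WT males and 4.69, 0.727 and 0.684 CPM in KO males. Of the Res groups, only KO females were high in all 3 mice. The *Ciart* level in WDA WT female 5 rests on 3 counts.

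*Bhlhe40* and *Bhlhe41* encode related bHLH repressors of the clock. *Bhlhe40* (gene 20893, chromosome 6, 108660629 to 108666925) was highest in Res KO females, at 91.3, 89.98 and 130.1 CPM, and lowest in Res WT males, at 20.96, 22.9 and 40.8 CPM. *Bhlhe41* (gene 79362, chromosome 6, 145858243 to 145865420) was scarce everywhere and highest in WDA males: 4.196, 5.20 and 3.70 CPM in WT and 5.17, 2.33 and 6.38 CPM in KO, against 0.424 to 2.89 CPM in the other 21 livers. Exons of Gm43909 on the opposite strand share 1280 of the 6720 exonic bases of *Bhlhe41*, and without strand reads of the pair cannot be told apart. *Klf9* (gene 16601, chromosome 19, 23141226 to 23168129) was at 268, 249.5 and 289 CPM in Res KO females, above all other livers, and at 196, 191 and 193 CPM in HepKO females. *Klf13* (gene 50794, chromosome 7, 63886351 to 63938915) was at 58.3, 61.0 and 86.5 CPM in Res KO females and 49.5, 56.2 and 48.5 CPM in HepKO females, and its group means were 31.4 to 54.8 CPM elsewhere.

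HepKO and KO livers of WDA females were compared to ask whether loss of *Kdm5b* in hepatocytes alone and loss under the CMV promoter differ. Of 12351 genes tested, 2 passed (0.0162%), and these are *Dbp* and *Ciart*, the genes for which the set was chosen. *Dbp* was 3.63-fold higher in HepKO than in KO livers by group means, with a log2 fold change of 1.85 ± 0.20 (SE), and *Ciart* 7.29-fold higher (2.86 ± 0.20). Leaving out each mouse in turn gave log2 fold changes of 1.62 to 1.9997 for *Dbp* and 2.76 to 2.95 for *Ciart*. *Klf13* (0.66 ± 0.12), *Klf9* (0.58 ± 0.09) and *Bhlhe41* (0.92 ± 0.34) were also higher in every HepKO than in every KO liver, and *Tef* (0.33 ± 0.16), *Usp2* (0.81 ± 0.38), *Bhlhe40* (0.10 ± 0.34), *Hlf* (−0.06 ± 0.14) and *Nfil3* (−0.43 ± 0.30) overlapped. In this and every other comparison, the share of all genes whose groups do not overlap was not computed. A lack of overlap between 3 and 3 mice therefore only describes the values and is not a trait of these genes.

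**Figure D2:**
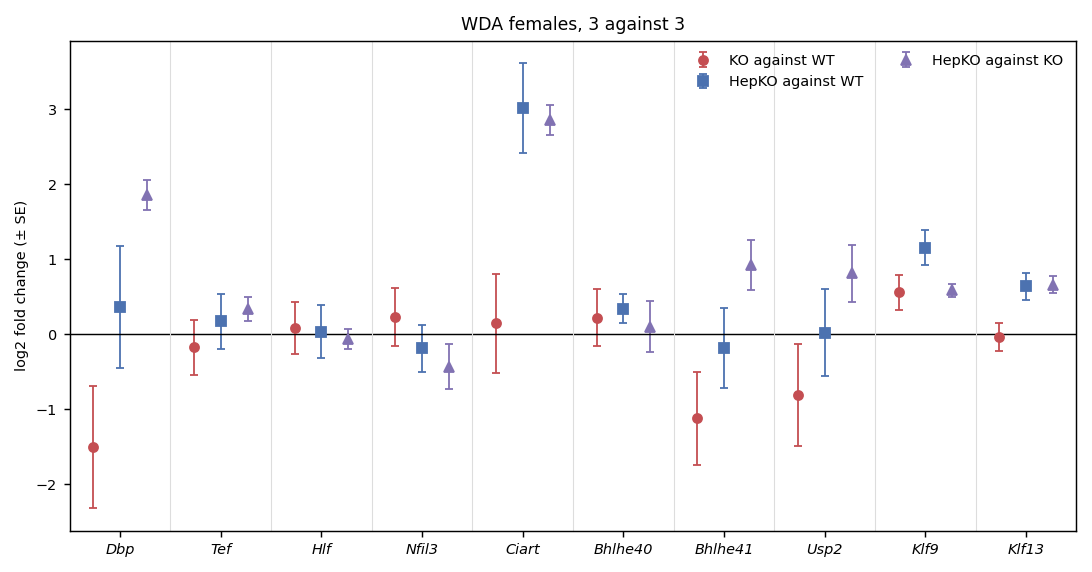
Log2 fold change with its SE (vertical axis) for each gene (horizontal axis) in WDA females, for KO against WT, HepKO against WT and HepKO against KO, 3 mice against 3 each. The comparisons share groups. *Ciart* lies at 3.02 against WT and 2.86 against KO, and the wide bars of *Dbp* against WT come with WT mouse 6, at 32.5 CPM.

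WT females share the diet and keep *Kdm5b*, but received AAV8-control in place of AAV8-TBG-Cre, and the label names no promoter for the control. Against WT females, HepKO livers again had more *Ciart* (8.24-fold by group means, log2 fold change 3.02 ± 0.60), while *Dbp* overlapped (0.36 ± 0.81). The *Dbp* value rests on WT mouse 6: without it, the log2 fold change was 2.10. None of the 8 other genes passed in this comparison, nor did any of the 12413 genes tested by edgeR (0%), although 1249 genes had an unadjusted p under 0.05, 2 of the 8 among them, and DESeq2 called 219 genes. The 2 are *Klf9*, 2.23-fold higher in HepKO livers (1.15 ± 0.23, edgeR adjusted p = 0.212), and *Klf13* (0.64 ± 0.18, edgeR adjusted p = 0.322), and neither overlapped with WT. Without WT mouse 7, which is rich in cholangiocyte markers, *Klf9* passed (0.93 ± 0.10, edgeR adjusted p = 0.00235), beside 2.8% (349 of 12471) of all genes in that fit. DESeq2 also called *Klf9*, with all mice.

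KO and WT livers were compared within each sex and stage. None of the 8 genes passed by edgeR in WDA females, WDA males, Res females or Res males, where 0 of 12397, 12419, 12577 and 12620 genes passed (0% in each). Unadjusted p was under 0.05 for 1, 2, 2 and 0 of the 8 genes and for 385, 958, 2413 and 183 genes in all, and DESeq2 called 8, 17, 591 and 7 genes. The largest ratio for which the groups did not overlap was that of *Klf9* in Res females, at 268, 249.5 and 289 CPM in KO and 212, 129 and 122 CPM in WT livers (log2 fold change 0.76 ± 0.21, edgeR adjusted p = 0.129), and DESeq2 called it. Without Res WT female 1, *Klf9* (1.05 ± 0.14, edgeR adjusted p = 0.0166) and *Bhlhe40* (1.06 ± 0.21, edgeR adjusted p = 0.0390) passed in edgeR too, beside 6.65% (852 of 12814) of all genes in that fit. *Klf9* was also higher in every KO than in every WT liver of WDA females (0.56 ± 0.23, edgeR adjusted p = 0.978), and *Hlf* lower in every KO than in every WT liver of WDA males (−0.55 ± 0.22, edgeR adjusted p = 0.588). Without WDA WT female 7, *Klf9* was at 0.34 ± 0.12 (edgeR adjusted p = 0.786). Without WDA KO male 17, *Hlf* was at −0.34 ± 0.12 (edgeR adjusted p = 0.451). *Dbp* was at 3.46, 3.65 and 5.17 CPM in KO and 3.32, 1.67 and 2.61 CPM in WT livers of Res females, a log2 fold change of 0.65 ± 0.31. Fits of both sexes together called 0 of 8 genes at either stage, beside 0 of 12895 (0%) and 0 of 13178 genes (0%), with 377 and 1035 genes at an unadjusted p under 0.05 and none of the 8 genes among them. DESeq2 called 4 and 6 genes there.

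Whether the KO effect differed between the sexes or the stages was tested as an interaction. No gene of the 8 passed in WDA mice, Res mice, females or males, beside 0 of 12895, 13178, 12940 and 13107 genes (0% in each). Nearest was *Klf9* between the sexes in Res mice (edgeR adjusted p = 0.383), whose KO effect was lower in males by 0.80 ± 0.33 on the log2 scale. It was the only one of the 8 with an unadjusted p under 0.05 in these 4 fits, where 1470, 1512, 804 and 424 genes had one, and DESeq2 called 10, 78, 1 and 1 genes.

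Res and WDA livers were compared to follow the genes from alcohol feeding to 4 weeks after it. In KO females, 6 of the 8 genes rose and none fell, beside 10.2% of all genes higher in Res livers and 20.4% (2550 of 12470) changed in either direction. The fit contains the WDA KO females, whose values helped to choose the set. *Klf9* rose 2.08-fold (log2 fold change 1.06 ± 0.11, edgeR adjusted p = 0.000717), from 122 to 137 CPM in WDA to 249.5 to 289 CPM in Res livers. *Klf13* rose 2.12-fold (1.08 ± 0.16, edgeR adjusted p = 0.00312), from 30.6 to 35.9 CPM to 58.3 to 86.5 CPM. Both kept an adjusted p under 0.05 in all 6 fits that leave out a mouse, the highest being 0.00484 without Res KO female 4 and 0.0114 without WDA KO female 2.

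The other 4 genes that rose in KO females were *Usp2* (2.51-fold, edgeR adjusted p = 0.0254), *Bhlhe40* (2.26-fold, 0.0352), *Nfil3* (2.05-fold, 0.0247) and *Tef* (1.53-fold, 0.0200). Their groups did not overlap. These calls depend on single mice: *Tef* stayed under 0.05 in 4 of the 6 fits without a mouse, *Nfil3* and *Usp2* in 2 and *Bhlhe40* in 1, and the highest adjusted p, 0.0826 for *Tef*, 0.0851 for *Nfil3*, 0.0831 for *Usp2* and 0.123 for *Bhlhe40*, came without Res KO female 4. Summed hepatocyte markers ran from 149811 to 179798 CPM in Res and 93096 to 113593 CPM in WDA KO females. Of the hepatocyte markers, 3 of 8 passed and were higher in Res livers, beside 10.2% of all genes. So were 2 of 6 Kupffer, 2 of 6 monocyte and macrophage, 2 of 4 tested neutrophil, 1 of 7 stellate and 1 of 4 B cell markers. No tested endothelial, cholangiocyte or T and NK cell marker passed. The part of these markers in the changes was not tested. *Hlf* (0.01 ± 0.15, edgeR adjusted p = 0.970) and *Bhlhe41* (0.02 ± 0.40, edgeR adjusted p = 0.982) did not pass. *Ciart* was 9.67-fold higher in Res KO females (log2 fold change 3.27 ± 0.28), and *Dbp* overlapped (−0.22 ± 0.20).

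In WT females none of the 8 genes passed, nor did any of 12603 genes by edgeR (0%), with 3 of the 8 and 1716 of all genes at an unadjusted p under 0.05 and 386 called by DESeq2, none of the 8 among them. The 3 are *Klf9* (0.83 ± 0.31, edgeR adjusted p = 0.328), *Klf13* (0.74 ± 0.25, edgeR adjusted p = 0.287) and *Bhlhe40* (0.71 ± 0.30, edgeR adjusted p = 0.365), all higher in Res livers. *Dbp* differed by −2.40 ± 0.89 on the log2 scale and by −0.65 without WDA WT mouse 6. *Ciart* differed by 2.50 ± 1.13, and by 1.15 without Res WT female 1.

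In WT males, whose values helped to choose the set, *Dbp* was at 41.9 to 56.7 CPM in WDA and 1.83 to 3.71 CPM in Res livers, a log2 fold change of −4.21 ± 0.25. Of the other 8 genes, *Bhlhe41* (−1.99 ± 0.35), *Usp2* (−1.35 ± 0.35), *Tef* (−1.07 ± 0.15) and *Bhlhe40* (−0.74 ± 0.25) were lower in every Res than in every WDA liver, and *Nfil3* was higher in every one (1.29 ± 0.09). *Hlf* (0.07 ± 0.15), *Klf9* (−0.16 ± 0.17) and *Klf13* (0.05 ± 0.18) overlapped. The fit across all genes put 3 of the 8 among the genes called lower and 1 among those called higher, beside 5.98% of all genes lower, 4.99% higher and 11% (1361 of 12408) in either direction. These counts come from a comparison that helped to choose the set, and nothing is read from them.

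In KO males none of the 8 genes passed, beside 0 of 12747 genes (0%), with 4 of the 8 and 819 genes at an unadjusted p under 0.05. DESeq2 called 80 genes and none of the 8. *Dbp* was again lower in Res livers (2.45 to 4.44 CPM against 12.0 to 68.3 CPM, log2 fold change −3.78 ± 0.64, and −4.23 without WDA KO male 17). The 4 with an unadjusted p under 0.05 were *Bhlhe40* (−1.25 ± 0.39, edgeR adjusted p = 0.652), *Bhlhe41* (−2.08 ± 0.68, edgeR adjusted p = 0.671), *Nfil3* (0.91 ± 0.30, edgeR adjusted p = 0.671) and *Hlf* (0.59 ± 0.24, edgeR adjusted p = 0.752). None of these groups overlapped. Without WDA KO male 17 and Res KO male 5, *Bhlhe41* was at −3.51 ± 0.38 (edgeR adjusted p = 0.0522), *Bhlhe40* at −1.93 ± 0.27 (0.0796), *Nfil3* at 0.98 ± 0.37 (0.514) and *Hlf* at 0.33 ± 0.19 (0.663), and 5 of 12524 genes (0.0399%) were called.

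**Figure D3:**
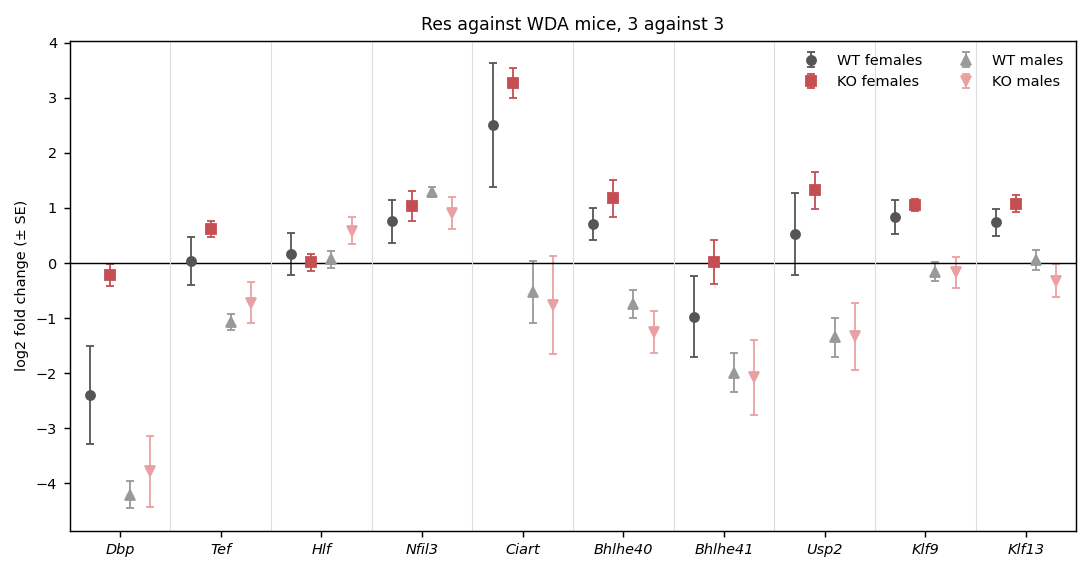
Log2 fold change of Res against WDA livers with its SE (vertical axis) for each gene (horizontal axis), separately for WT and KO females and males, 3 mice against 3 each. *Dbp*, *Tef*, *Ciart*, *Bhlhe40*, *Bhlhe41*, *Usp2*, *Klf9* and *Klf13* lie higher in both female comparisons than in both male ones, *Nfil3* lies above 0 in all 4, and *Dbp* lies lowest in the males.

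The difference between the sexes in this change was tested as an interaction. In KO mice it was −2.42 ± 0.59 for *Bhlhe40* (edgeR adjusted p = 0.257), −1.39 ± 0.36 for *Klf13* (0.286), −1.21 ± 0.31 for *Klf9* (0.271), −2.64 ± 0.78 for *Usp2* (0.334), −1.32 ± 0.43 for *Tef* (0.405) and −2.07 ± 0.85 for *Bhlhe41* (0.559), all lower in males than in females on the log2 scale. These 6 had an unadjusted p under 0.05, none passed the adjusted threshold, and no gene of 13036 did by edgeR (0%), with 1030 at an unadjusted p under 0.05. DESeq2 called 3 of the 8 (*Bhlhe40*, *Klf9* and *Klf13*) and 87 genes in all. Without the libraries rich in cholangiocyte markers, here WDA KO male 17 and Res KO male 5, all 6 passed in edgeR, with *Bhlhe40* at −3.10 ± 0.53 (adjusted p = 0.0234) and *Klf9* at −1.61 ± 0.21 (adjusted p = 0.00703), beside 0.703% (91 of 12939) of all genes in that fit. In WT mice none of the 8 genes passed, beside 1 of 13152 genes (0.0076%), 3 of the 8 and 1014 genes had an unadjusted p under 0.05, DESeq2 called 75 genes and none of the 8, and *Bhlhe40* was the nearest (−1.48 ± 0.43, edgeR adjusted p = 0.476). This fit contains the WT males, and that of KO mice the WDA KO females, whose values helped to choose the set. The interaction of *Dbp* came to −3.55 ± 0.70 among KO and −1.83 ± 1.03 among WT animals, that of *Ciart* to −4.00 ± 1.01 and −3.07 ± 1.36.

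Males and females were compared within each stage over WT and KO mice, 6 against 6. Among Res livers, 3 of the 8 genes were lower in males, beside 1.65% of all genes lower in males and 3.38% (445 of 13178) in either direction: *Bhlhe40* (29.3 ± 12.3 CPM in males and 83.6 ± 31.4 CPM in females, log2 fold change −1.46 ± 0.28, edgeR adjusted p = 0.0121), *Klf13* (32.0 ± 6.98 and 61.7 ± 15.2 CPM, −0.93 ± 0.18, edgeR adjusted p = 0.0105) and *Klf9* (118 ± 23.0 and 211 ± 71.5 CPM, −0.78 ± 0.20, edgeR adjusted p = 0.0476). *Bhlhe40* and *Klf13* passed in all 12 fits without a mouse, and *Klf9* in 3, its highest adjusted p being 0.132 without Res WT female 1. Without the 3 Res libraries rich in cholangiocyte markers the same 3 genes passed, *Bhlhe40* with −2.02 ± 0.22 (adjusted p = 0.000206), beside 6.72% (867 of 12902) of all genes in that fit. *Usp2* differed by −0.91 ± 0.36 (edgeR adjusted p = 0.191), and *Ciart* was at 0.684 to 4.87 CPM in males and 0.540 to 13.5 CPM in females. Summed hepatocyte markers were at 93098 to 119984 CPM in these males and 102949 to 179798 CPM in the females, and their part in the difference was not tested.

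Among WDA livers only *Bhlhe41* of the 8 passed, 3.22-fold higher in males (log2 fold change 1.75 ± 0.41, edgeR adjusted p = 0.0450), beside 1.31% of all genes higher in males and 2.85% (367 of 12895) in either direction. It stayed under 0.05 in 2 of the 12 fits without a mouse and reached 0.107 without WDA KO male 18. *Tef* (0.94 ± 0.26, edgeR adjusted p = 0.0834) and *Usp2* (1.36 ± 0.47, edgeR adjusted p = 0.183) missed the threshold. Without WDA WT female 7 and WDA KO male 17, *Tef*, *Bhlhe41*, *Usp2* and *Klf9* passed, all higher in males, beside 11.2% (1426 of 12770) of all genes in that fit. *Dbp* was at 12.0 to 68.3 CPM in males and 3.15 to 32.5 CPM in females, the overlap being male 17 and female 6.

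Across the 27 livers *Dbp* moved with genes of the clock itself. *Arntl*, which encodes the activator of the loop, was at 6.38 to 13.4 CPM in the 5 WDA males with high *Dbp* and 18.2 CPM in male 17, at 11.1 CPM in WDA WT female 6 and 20.9 and 22.8 CPM in the other WT females, and at 24.4 to 37.9 CPM in Res livers. *Nr1d1*, the REV-ERB gene that represses *Arntl*, was at 103 to 143 CPM in those 5 males, 55.1 CPM in male 17, 92.3 CPM in female 6 and 8.95 to 43.1 CPM in Res livers. HepKO females had *Nr1d1* of 106 to 151 CPM beside 46.9 to 82.7 CPM in KO females, while their *Arntl*, 19.9 to 24.3 CPM, lay close to that of KO females, 24.3 to 25.7 CPM. *Per1*, which glucocorticoids also induce, was at 43.0 to 57.0 CPM in HepKO, 23.4 to 41.1 CPM in KO and 13.4 to 18.4 CPM in WT females of the WDA groups.

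**Figure D4:**
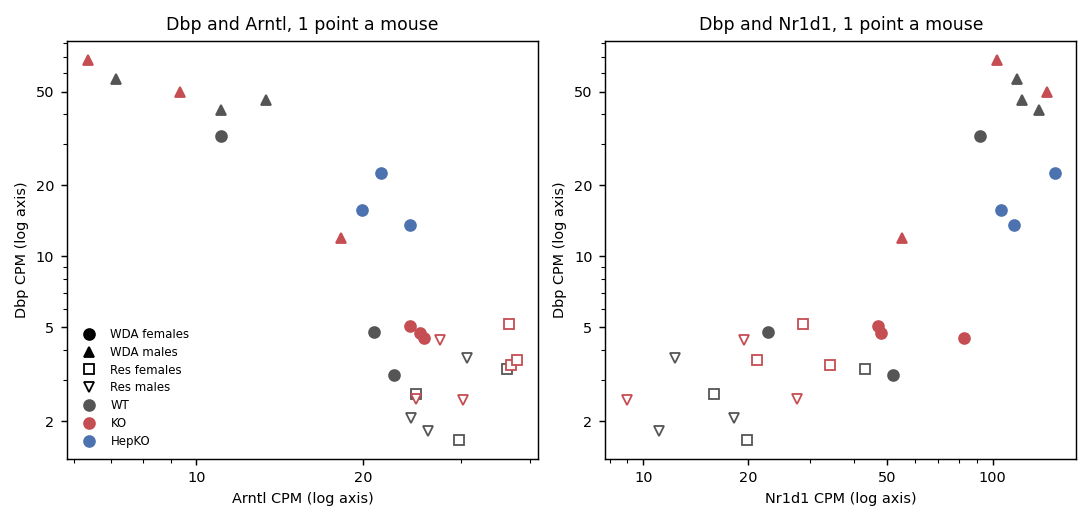
*Dbp* CPM (vertical log axis) against *Arntl* CPM (left) and *Nr1d1* CPM (right, horizontal log axes) in 27 livers, 1 point a mouse, shaped by stage and sex and coloured by vector. Livers with *Dbp* above 30 CPM have *Arntl* of 13.4 CPM or less and *Nr1d1* of 92.3 CPM or more, and Res livers lie at low *Dbp* and high *Arntl*.

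To describe likeness apart from the groups, group means of log2 CPM were subtracted and each gene was correlated with the others over the 27 libraries, among 10992 genes with a mean log2 CPM of at least 1. These are Pearson correlations, given with no test. Which libraries shared a sequencing run is not given in the sources used here. The 5 genes nearest to *Dbp* were *Nr1d2* (r = 0.83), *Cobll1* (0.82), *Tef* (0.82), *Upp2* (0.78), which encodes a uridine phosphorylase, and *Usp2* (0.78). The 5 farthest were *Npas2* (−0.78), the partner of ARNTL, *D10Wsu102e* (−0.77), *Ncoa5* (−0.75), *Pramel12* (−0.73) and *Arntl* (−0.72). Without the subtraction, r was 0.93 for *Nr1d2*, 0.39 for *Cobll1*, −0.64 for *Npas2* and −0.87 for *Arntl*. The named genes depend on single mice: without WDA WT female 5 none of the 10 stayed among the 5 nearest and 5 farthest, and without female 6 3 did, although r with *Tef* was 0.86 and 0.73 there.

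The strongest likeness within the set was that of *Tef* and *Usp2* (r = 0.93, and 0.91 without the subtraction), which stayed between 0.91 and 0.94 without any 1 mouse. *Dbp*, *Tef*, *Usp2*, *Ciart*, *Klf9* and *Klf13* deviated together, with r of 0.57 to 0.93 between them. *Nfil3* deviated against *Dbp* (−0.48) and *Usp2* (−0.57) and with *Arntl* (0.54), and its r with *Dbp* was −0.76 over all libraries. Without WDA WT female 6, r of *Nfil3* was −0.26 with *Dbp* and −0.46 with *Usp2*. *Hlf* had r of 0.57 with *Tef*, 0.42 with *Dbp*, which was 0.13 without that mouse, and −0.01 with *Ciart*. The gene nearest to *Hlf* was *Akr1c20* (0.95), to *Ciart* *Cyth1* (0.83), to *Bhlhe40* *Pim3* (0.86), to *Klf9* *Slc38a4* (0.89), to *Klf13* *Ciart* (0.81) and to *Nfil3* *Efna1* (0.74). *Bhlhe41* was too low to enter.

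**Figure D5:**
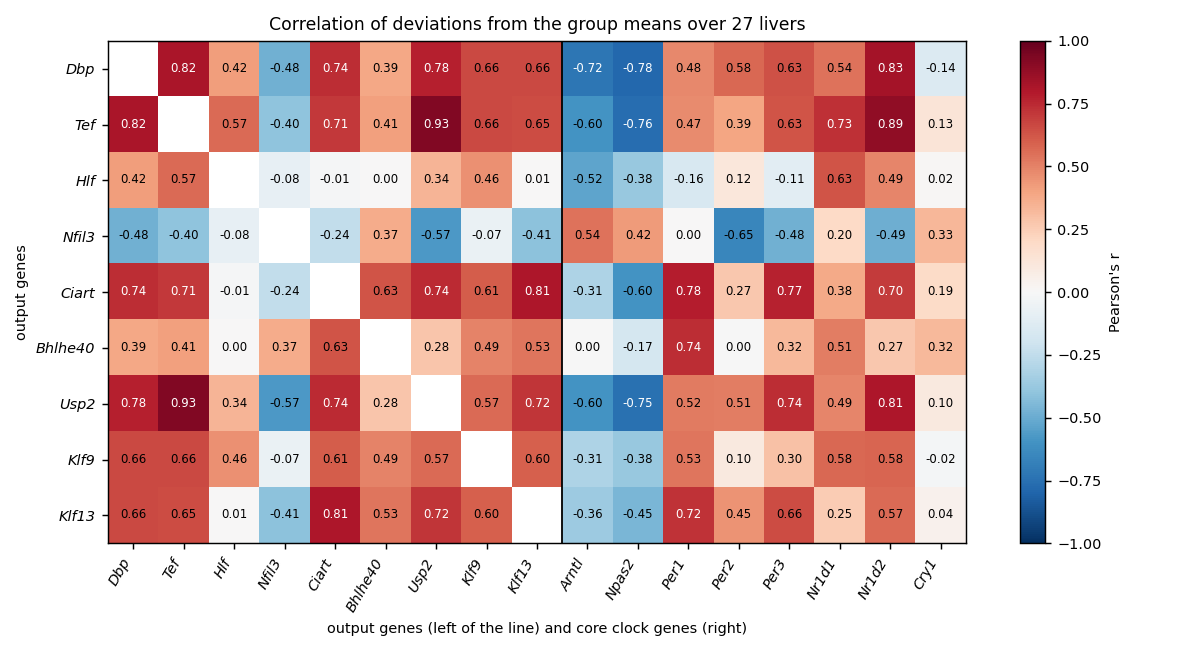
Pearson's r (colour and number) between deviations of log2 CPM from the group means over 27 livers, for 9 output genes (vertical axis) against each other and against 8 core clock genes (horizontal axis, right of the line). *Tef* and *Usp2* are the closest pair at 0.93, *Npas2* is negative with *Dbp*, *Tef* and *Usp2*, and *Hlf* is near 0 with *Ciart*, *Bhlhe40* and *Klf13*.

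The rest of the pathway was followed with lists of genes chosen by their known roles, with earlier results of these libraries known. Their counts and adjusted p are therefore a description and not independent support. Of 15 core clock genes, 5 rose and 2 fell from WDA to Res livers in KO females, with a median log2 fold change of 0.18, beside 0.01 over all genes. Of all genes, 10.2% were higher in these Res livers and 20.4% changed in either direction. *Per1* rose (1.85 ± 0.23, edgeR adjusted p = 0.00162), *Cry1* rose (1.08 ± 0.16, edgeR adjusted p = 0.00328), and *Npas2* fell by 1.25 on the log2 scale (edgeR adjusted p = 0.00471). *Arntl* (0.57 ± 0.10, edgeR adjusted p = 0.00640), *Csnk1e* and *Per2* also rose, and *Nr1d1* fell. In WDA livers *Npas2* (−2.50 ± 0.41, edgeR adjusted p = 0.00633) and *Cry1* (−0.94 ± 0.17, edgeR adjusted p = 0.0101) were lower in males than in females. By sex, 2.85% of all genes passed in WDA livers. None of the 15 differed by sex in Res livers, beside 3.38% of all genes. None passed in any KO, HepKO or interaction test either, where at most 0.0162% of all genes did. In WT males the values were read as a description: *Nr1d1* changed by −3.15 ± 0.18 and *Npas2* by 2.57 ± 0.32 from WDA to Res.

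Genes that PAR bZIP factors are known to activate, 8 in all, rose in 2 cases and fell in 1 in KO females: *Por*, the electron donor of cytochromes P450 (0.61 ± 0.16, edgeR adjusted p = 0.0282), and *Cyp2a5* (0.83 ± 0.24, edgeR adjusted p = 0.0382) rose, and *Ppara*, a lipid-sensing nuclear receptor (−0.76 ± 0.20, edgeR adjusted p = 0.0285), fell. The median of the 8 was 0.30, and 10.2% of all genes were higher in Res livers there and 20.4% changed in either direction. By sex, *Cyp2b10* was lower in males of the WDA groups (−2.76 ± 0.66, edgeR adjusted p = 0.0462) and *Cyp2a4* in those of the Res groups (−4.71 ± 1.19, edgeR adjusted p = 0.0477), 1 of 8 in each, beside 2.85% and 3.38% of all genes in either direction. Of 8 other clock-controlled liver genes, 5 rose and 1 fell in KO females from WDA to Res, with a median of 1.14, beside 20.4% of all genes changed: *Noct* (1.65 ± 0.38, edgeR adjusted p = 0.0165), *Wee1* (1.28 ± 0.25, edgeR adjusted p = 0.00896), *Cdkn1a*, *Upp2* and *Nampt* rose, and *Gys2*, glycogen synthase of the liver, fell. *Wee1*, a kinase of the cell cycle, was higher in males among WDA livers (1.199 ± 0.24, edgeR adjusted p = 0.0218), and *Cdkn1a* was lower there (−2.24 ± 0.54, edgeR adjusted p = 0.0489). *Elovl3*, an elongase of fatty acids known to be male-biased, was the 1 gene of this list that passed between sexes in Res livers (4.41 ± 0.58 higher in males, edgeR adjusted p = 0.000920).

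Glucocorticoid-responsive genes and other KLF genes moved beside *Klf9* and *Klf13* from WDA to Res in KO females, where 10.2% of all genes were higher in Res livers. In KO females 6 of 8 glucocorticoid-responsive genes rose and none fell from WDA to Res, with a median log2 fold change of 1.42: *Ddit4* (2.30 ± 0.46, edgeR adjusted p = 0.0103), *Dusp1*, a MAP kinase phosphatase (1.92 ± 0.26, edgeR adjusted p = 0.00217), and *Fkbp5*, a co-chaperone of the glucocorticoid receptor (1.91 ± 0.36, edgeR adjusted p = 0.00794), rose most, with *Tat*, *Zbtb16* and *Errfi1*. *Tsc22d3* (means of 41.6 CPM in WDA and 44.9 CPM in Res livers) and *Sgk1* (56.0 and 58.2 CPM) did not pass. Of 9 other KLF genes 7 rose in KO females and none fell, *Klf4* most (1.56 ± 0.29, edgeR adjusted p = 0.00717), with a median of 0.98. Neither list had a gene that passed in WT females or KO males, where 0% of all genes did. The glucocorticoid medians there were 1.33 and −0.09. In WT males 1 of the 8 was called higher and 2 of the 9 lower, beside 4.99% and 5.98% of all genes. Between the sexes in Res livers 2 of the 9 KLF and 2 of the 8 glucocorticoid-responsive genes were lower in males, beside 1.65% of all genes. They were *Klf10* (−1.41 ± 0.18, edgeR adjusted p = 0.000573), *Klf11* (−1.10 ± 0.15, edgeR adjusted p = 0.00139), *Dusp1* (−1.93 ± 0.31, edgeR adjusted p = 0.00428) and *Errfi1* (−0.81 ± 0.19, edgeR adjusted p = 0.0336). The other genes of both lists, *Fkbp5* and *Tsc22d3* among them, did not pass. In HepKO against WT livers the median of the 8 glucocorticoid-responsive genes was 0.87 and that of the 9 KLF genes 0.47, beside −0.02 over all genes. The glucocorticoid-responsive genes were not alike: *Dusp1* averaged 47.0 CPM in HepKO and 18.2 CPM in WT livers, and *Tsc22d3* 45.2 and 45.8 CPM. None of either list passed the test, nor did any of the 12413 genes.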

How the data were processed

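Livers of 27 mice had been sequenced on a BGISEQ platform. The authors aligned reads with HISAT and Bowtie2 to GRCm38.p6, and deposited 4 tables of FPKM and estimated counts per gene. The authors' estimated counts are not normalized. The tool that gave these values, and whether counting used strand, are not given in the sources used here. Estimated counts were rounded, and genes that a table did not list were set to 0. Library totals ran from 14634602 to 19388251 counts, so precision is lowest for *Ciart* and *Bhlhe41*. Groups came from the labels, and each library is 1 mouse.

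Differences were tested with edgeR 4.0.16 (R 4.3.3, quasi-likelihood F test, filterByExpr with a minimum count of 10, TMM scaling) in 20 comparisons, each fitted on its own groups, with Benjamini-Hochberg adjustment over all genes tested and a threshold of 0.05. The SE is the log2 fold change divided by the square root of F. Fits were tested on simulated data. Members and lists were chosen with earlier results of these data known. All 10 genes entered and passed the filter in every comparison. No p is given for *Dbp* and *Ciart*, nor for any of the 10 genes in HepKO against KO or in Res against WDA WT males, where calls are only counted, which leaves 8 genes in 18 comparisons. Nearest genes were named by Pearson's r of log2 CPM (prior count 2) less the group mean, the 5 highest and 5 lowest for *Dbp* and the highest for the others. Alternatives were RLE, upper quartile and unscaled totals, other filters, DESeq2 1.42.0 (the tool the study names), one fit of all groups, FPKM with a pseudocount of 0.1, and leaving out each mouse. Leaving out the libraries whose summed cholangiocyte markers reached 150.0 CPM was added after the data were seen. Promoters are from RefSeq, and exon overlaps from GENCODE.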

Additional observations from a re-analysis of the deposited data

Results flagged for a closer look

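*Bhlhe40* was singled out because its change from WDA to Res went opposite ways in KO mice of the 2 sexes, with no overlap in either. In KO females it was at 89.98 to 130.1 CPM in Res and 29.5 to 77.1 CPM in WDA livers. In KO males it was at 16.1 to 47.6 CPM in Res and 52.8 to 88.8 CPM in WDA livers. The difference of the log2 fold changes was −2.42 (edgeR adjusted p = 0.257) and did not pass. It passed with DESeq2 and, in edgeR, without the KO libraries high in cholangiocyte markers (−3.10, adjusted p = 0.0234).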

How the results depend on the processing

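Of 338 recomputed counts of genes called, 304 stayed within 1.5 times the reported count and 34 did not, and of the fold changes of the 10 genes none changed sign as a called value, 41 calls were lost, 29 were gained, and 57 values with no call in either fit moved by more than the spread between replicates. With DESeq2 the count of the 8 genes called was 1 for KO against WT in Res females, beside 591 of 12577 genes in all. It was 1 for HepKO against WT (219 of 12413) and 2 for HepKO against KO (38 of 12351). For stage by sex in KO mice it was 3 (87 of 13036) and for sex in WDA mice 2 (714 of 12895). With 1 spread shared by all groups the count was 1 for HepKO against WT, beside 49 genes in all. It was 1 for Res against WDA in WT females (840 genes), 1 for that in WT males (308) and 2 for sex in WDA mice (646). The count for sex in WDA mice was 0 with upper quartile scaling and 0 with at least 10 counts in every library. Without the libraries high in cholangiocyte markers the count was 1 for HepKO against WT, beside 2.8% of all genes. It was 1 and 6 for stage by sex in WT and KO mice (0.0705% and 0.703%), and 4 for sex in WDA mice (11.2%). Leaving out each mouse gave 0 to 2 for KO against WT in Res females, 0 to 1 for HepKO against WT, 1 to 5 for Res against WDA in WT males, 2 to 6 for that in KO females, 0 to 1 for stage by sex in KO mice, 0 to 2 for sex in WDA mice and 2 to 4 for sex in Res mice. The share of all genes called is not set beside these ranges, so nothing is read from them. The cause of these shifts was not tested. With FPKM, 4 of the 10 genes most and least like *Dbp* were retained. No paired analysis was possible because mouse numbers repeat between experiments and groups without marking a shared animal, litter or day. Low counts of *Ciart* and *Bhlhe41* and 3 mice a group limit the precision.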
